A study of Mus musculus with 20 samples.

Results

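The sham + v and OVX + v groups were compared over the 3468 genes that had at least 10 counts in each of the 10 libraries, of 14764 genes with a count in any of them and 25655 genes in the deposited table. In this comparison the only difference by design is the loss of the ovaries, so it asks what that loss does to the RNA of the utricle when no hormone is given. Female C57BL/6J mice were operated on at 8 weeks of age, and the utricle was taken 4 weeks later. In the OVX + v group the ovaries were removed, and in the sham + v group they were exposed and left in place. Animals of both groups carried a subcutaneous vehicle pellet without hormone. Each group had 5 libraries, numbered 1 to 5 (sham + v) and 6 to 10 (OVX + v). The labels do not say whether a library came from 1 mouse or from several, and they give no batch, so that the tests measure the spread between these libraries. The stage of the estrous cycle of the sham-operated mice is not given either.

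The utricle is one of the gravity sensing organs of the inner ear. Its hair cells carry a gelatinous membrane weighted with otoconia, crystals of calcium carbonate on a protein matrix that supporting cells and the fluid-regulating dark cells help to form and maintain. Estrogens act through the nuclear receptors encoded by *Esr1* and *Esr2*, which bind DNA together with coregulators, and loss of ovarian estrogen is known for its effect on bone mineral. Families of genes that could bear on these processes were therefore read one by one: otoconial matrix, ion and calcium transport, the cell types of the organ, energy metabolism, antioxidant defence, stress responses and hormone signalling.

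Depth was similar in both groups, with 1507719 to 2053255 counts per sham + v library and 1435156 to 2019032 per OVX + v library. Because reads were taken from the 3′ end of each transcript, levels in CPM, the count of a gene scaled to the total of its library, need no correction for transcript length. The well-counted genes held 79.2% to 81.1% of the counts of a library, and 10 counts stood for 4.87 to 6.97 CPM. Another 9168 genes had at least 10 counts summed over the libraries but a count of 0 in at least 1 of them, and these on/off genes were not compared. Genes just inside the limit (59 with a smallest count of 10) had a median of their mean counts of 76.4, and those just outside it (75 with a smallest count of 9) had 86.2. By mitochondrial share and *Ptgds* one library stood apart. In sham + v replicate 1 the mitochondrial transcripts made up 4.80% of the counts, against 9.92% to 12.3% in the other sham + v libraries and 7.16% to 10.9% in the OVX + v libraries. In the same library *Ptgds*, the prostaglandin D synthase and carrier of lipophilic molecules that is the most abundant transcript of these samples, reached 85939 CPM against 37322 to 58128 CPM in the other 9.

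Markers of the utricle were present, most of them in all 10 libraries. The hair cell genes *Pou4f3*, *Otof*, *Espn* and *Myo6*, the gap junction genes *Gjb2* and *Gjb6*, the otolithic membrane gene *Otog* and the myelin genes *Pmp22* and *Mbp* each had at least 3 counts in every library. The hair cell gene *Myo7a* was missing from 1 library and *Sox2*, a supporting cell factor, from 2. Otoconin-90, the main otoconial matrix protein, is encoded by *Oc90*, which had 3 counts or more in 4 libraries, 2 of each group, and no count in the other 6. Of tissues that can come along in the dissection, skeletal muscle and osteoclasts left little trace. None of 29 muscle genes and none of 15 osteoclast genes was well counted, and their summed levels reached 376 and 245 CPM in the highest sham + v libraries and 709 and 195 CPM in the highest OVX + v libraries. Of mucosal secretory markers, *Scgb1a1* and *Muc5b* had no count in any library, whereas *Bpifa1* had 3 counts or more in 3 libraries of each group and up to 328 CPM in the sham + v and 727 CPM in the OVX + v group. The 22 mucosal genes summed to 319 to 1290 CPM in the sham + v and 277 to 1504 CPM in the OVX + v libraries.

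No gene differed between the groups past the threshold. With edgeR's quasi-likelihood test and Benjamini-Hochberg adjustment, 0 of 3468 genes (0%) had an adjusted p under 0.05, and the smallest adjusted p was 0.999. Before adjustment 143 genes (4.12%) had a p under 0.05, of which 88 (2.54%) were higher and 55 (1.59%) lower in the sham + v group. DESeq2 on the same genes also called 0, with 197 genes under 0.05 before adjustment, and limma on log2(CPM + 1) called 0, with 161. Fold changes are given as log2 of sham + v over OVX + v throughout, so that a positive value means a higher level in the group that kept its ovaries. Their median was 0.03, with 1822 genes above 0 and 1646 below. With TMM normalization the median was -0.02 and the split turned to 1681 above and 1787 below, so no direction can be read from the balance of all genes. Estimates ran from -1.75 to 1.89, 148 genes lay beyond 1 in either direction and 0 beyond 2.

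**Figure D1:**
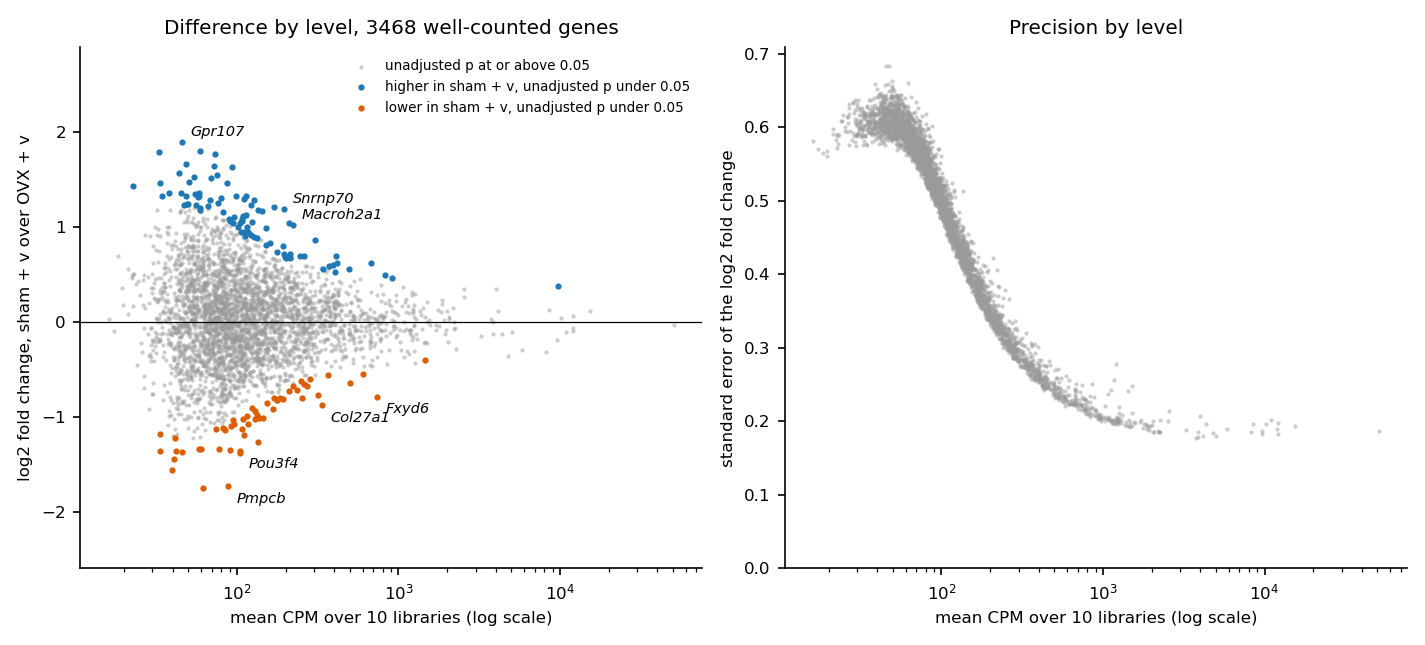
Left, log2 fold change of sham + v over OVX + v (vertical axis) against mean CPM over 10 libraries (log axis) for each of 3468 genes, with the 143 genes of unadjusted p under 0.05 in colour. Right, the standard error of the same fold changes, with a median of 0.608 under 50 CPM and 0.217 at 500 CPM or more, so that the scatter on the left narrows with the level.

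How large a difference these libraries leave room for depends on the level of the gene. The 95% interval of the fold change lay wholly within 1 on the log2 scale, that is within a doubling or a halving, for 882 of the 3468 genes (25.4%). Of the 448 genes under 50 CPM 0 reached this, and of 1312 genes at 50 to 100 CPM 2 did. Between 200 and 500 CPM it was 397 of 510 genes (77.8%), and at 500 CPM or more 228 of 232 (98.3%), where the median standard error was 0.217. For most genes at 500 CPM or more a doubling would therefore have lain outside the interval. The fit shares the spread between genes, so that an interval does not rest on the libraries of its gene alone. *Sod3* ran from 221 to 2330 CPM over the sham + v libraries, and its interval was -0.25 to 0.87. The groups were not separated as wholes. Correlations of log2(CPM + 1) between libraries were 0.680 to 0.711 within the sham + v group (10 pairs, median 0.694), 0.727 to 0.773 within the OVX + v group (10 pairs, median 0.754) and 0.690 to 0.762 between the groups (25 pairs, median 0.728). Each sham + v library thus had a lower median correlation with its own group than with the OVX + v libraries, and the sham + v libraries were the more spread of the groups. In a principal component analysis sham + v replicate 5 lay at one end of the second component and replicate 4 at the other, and replicate 2 lay at the end of the third, each farther out than any OVX + v library. In bulk RNA, fewer cells of a type and less RNA per cell cannot be told apart.

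The genes with the smallest p on the sham + v side included genes of splicing, calcium leak, chromatin, NAD synthesis and membrane traffic, among others. None passed the threshold (adjusted p = 0.999 each by edgeR's quasi-likelihood test), and the values are given as a description. Positions are on GRCm39. *Snrnp70*, a protein of the U1 spliceosomal particle, had 359.9, 359.5, 137, 269.5 and 239 CPM in the sham + v libraries and 136, 86.6, 175, 169.9 and 30.7 CPM in the OVX + v libraries. Only sham + v replicate 3 lay within the OVX + v range, and the fold change was 1.19 (SE 0.374, 95% interval 0.44 to 1.94). *Tmco1*, a calcium leak channel of the endoplasmic reticulum, had 174, 93.9, 236, 402 and 288 CPM in the sham + v libraries and 100.3, 157, 72.6, 114 and 69.0 CPM in the OVX + v libraries. Sham + v replicate 2 lay within the OVX + v range, and the fold change was 1.22 (SE 0.386, 95% interval 0.44 to 1.99). *Macroh2a1* (chr13:56221432-56284174), which encodes a histone variant, had 354, 249, 256, 344 and 289 CPM in the sham + v libraries and 244, 181, 68.0, 63.9 and 179.8 CPM in the OVX + v libraries. The groups did not overlap, although sham + v replicate 2 and OVX + v replicate 6 were only a few CPM apart, and the fold change was 1.02 (SE 0.343, 95% interval 0.33 to 1.71). *Sorbs2* (chr8:45960825-46280943), an adaptor protein of the actin cytoskeleton, had 231, 184, 191, 178 and 212 CPM in the sham + v libraries and 100.3, 146, 89.0, 80.7 and 25.8 CPM in the OVX + v libraries. Here too every sham + v library lay above every OVX + v library, with a fold change of 1.17 (SE 0.414, 95% interval 0.34 to 2.0).

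The largest estimate among all well-counted genes was that of *Gpr107*, a membrane protein of the Golgi and endosomes, with 78.9, 53.0, 103, 18.5 and 108 CPM in the sham + v libraries and 16.2, 30.1, 17.6, 25.3 and 7.66 CPM in the OVX + v libraries. Its fold change was 1.89 (SE 0.622, 95% interval 0.65 to 3.14), and sham + v replicate 4 lay inside the OVX + v range. *Nampt*, the rate-limiting enzyme of NAD salvage, had 38, 115, 67.0, 113 and 129 CPM in the sham + v libraries and 27.4, 47.7, 21.5, 6.93 and 29.3 CPM in the OVX + v libraries. All but replicate 1 of the sham + v libraries exceeded the highest OVX + v library, with a fold change of 1.8 (SE 0.609, 95% interval 0.58 to 3.02). *Cited4*, a coactivator that binds CBP and p300, had 60.9, 228, 332, 450.1 and 342 CPM in the sham + v libraries and 97.8, 109, 193, 148 and 137 CPM in the OVX + v libraries. The lowest value of all was that of sham + v replicate 1 and the other 4 sham + v libraries lay above the OVX + v group, with a fold change of 1.05 (SE 0.363, 95% interval 0.32 to 1.77). *Ykt6*, a SNARE protein of vesicle fusion, *Prrg3*, a membrane protein with a vitamin K dependent domain, and *Sos2*, a Ras exchange factor, had fold changes of 1.63, 1.77 and 1.79. In *Prrg3* the sham + v libraries ran from 12.6 to 209 CPM and enclosed the whole OVX + v range of 19.8 to 50.4 CPM.

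On the OVX + v side the smallest p belonged to *Fxyd6*, which encodes a regulator of the sodium pump. It had 669, 446, 580.2, 472 and 545 CPM in the sham + v libraries and 487, 757, 823, 1198 and 1416 CPM in the OVX + v libraries. OVX + v replicate 6 lay within the sham + v range, and the fold change was -0.79 (SE 0.233, 95% interval -1.25 to -0.32). *Col27a1*, a fibrillar collagen, had 353, 174, 235, 193 and 224 CPM in the sham + v libraries and 529, 431, 569, 323 and 317 CPM in the OVX + v libraries. The group means were 236 ± 69.7 and 434 ± 115 CPM (SD, n = 5 each), with sham + v replicate 1 inside the OVX + v range and a fold change of -0.88. *Pmpcb* (chr5:21942139-21962150), a subunit of the peptidase that processes proteins imported into mitochondria, had 62.3, 20.5, 40.3, 53.7 and 25.9 CPM in the sham + v libraries and 104, 136, 91.8, 134 and 211 CPM in the OVX + v libraries. The groups did not overlap, and the fold change was -1.74 (SE 0.527, 95% interval -2.79 to -0.68). *Mia2* (chr12:59142585-59238369), which helps large cargo to leave the endoplasmic reticulum, had 20.5, 37.3, 11.3, 46.4 and 25.2 CPM in the sham + v libraries and 101, 55.2, 88.4, 71.8 and 157 CPM in the OVX + v libraries. It did not overlap between the groups either, and its fold change was -1.75 (SE 0.594, 95% interval -2.94 to -0.56).

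A pair of POU transcription factors was also among these genes. *Pou3f4*, the factor of the otic mesenchyme whose human counterpart is mutated in X-linked deafness, had 55.5, 15.7, 71.7, 40.3 and 110.1 CPM in the sham + v libraries and 191, 94.7, 213, 135 and 121 CPM in the OVX + v libraries. Sham + v replicate 5 lay inside the OVX + v range, and the fold change was -1.36 (SE 0.495, 95% interval -2.35 to -0.37). *Pou3f3* had 118, 77.2, 59.3, 46.4 and 35.8 CPM in the sham + v libraries and 199, 129.9, 203, 137 and 105 CPM in the OVX + v libraries. Only sham + v replicate 1 reached the OVX + v range, and the fold change was -1.20 (SE 0.465, 95% interval -2.13 to -0.27). *Rgma*, a coreceptor of bone morphogenetic proteins, had 69.6, 76.1, 34.4, 172 and 43.8 CPM in the sham + v libraries and 191, 217, 157, 192 and 196 CPM in the OVX + v libraries. Its OVX + v libraries were close together while the sham + v libraries ran up to 172 CPM in replicate 4, and the fold change was -1.27 (SE 0.433, 95% interval -2.13 to -0.40). *Dctn6* of the dynactin complex, the ubiquitin ligase gene *Nedd4* and *Ndufa6* of respiratory complex I had fold changes of -1.38, -0.65 and -0.77.

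**Figure D2:**
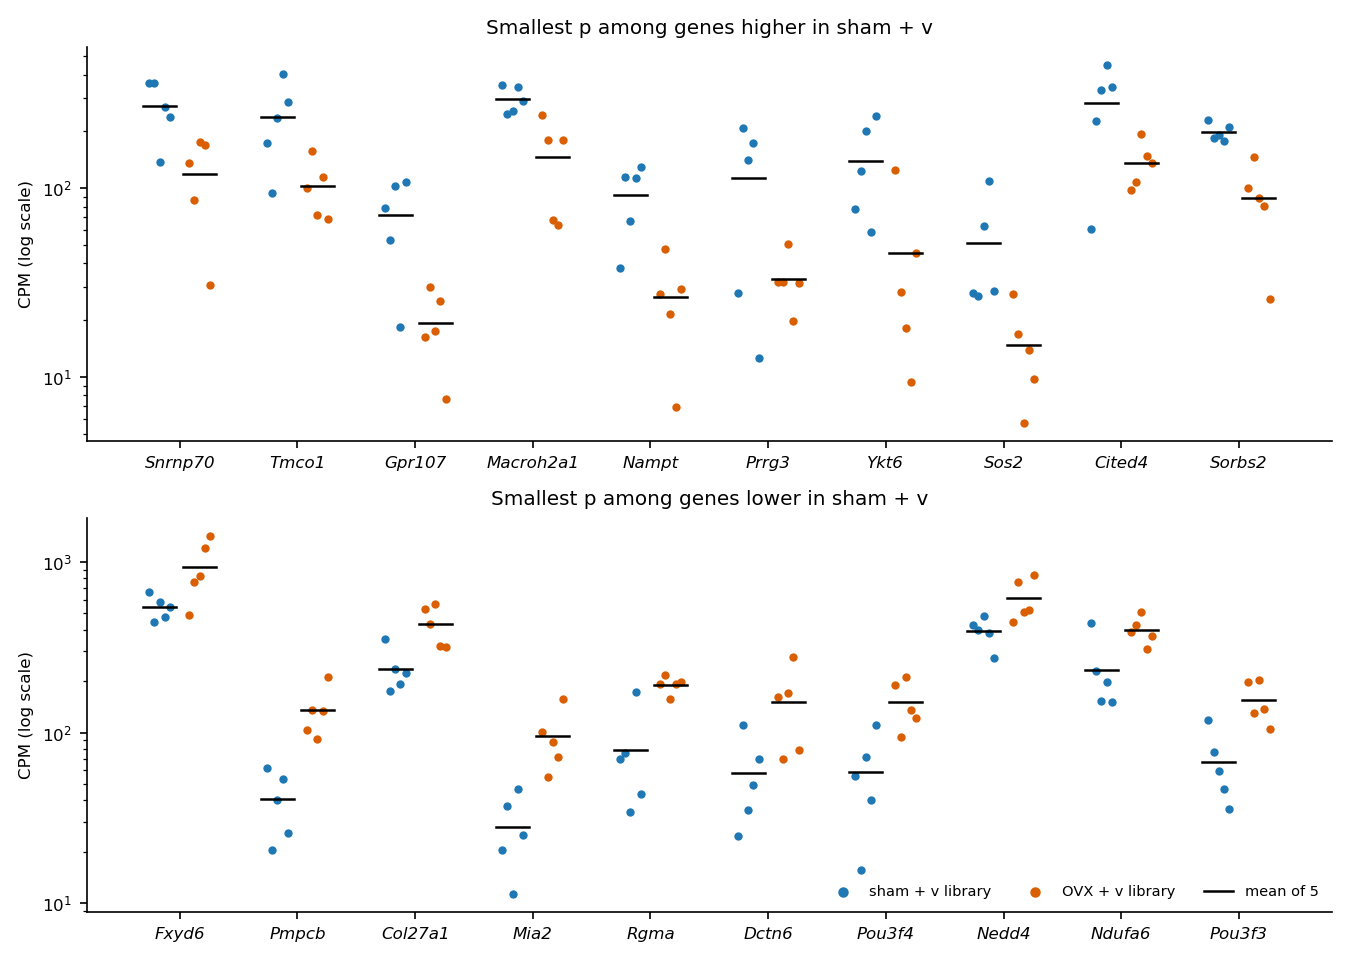
CPM (log axis) of the 10 genes with the smallest p on each side in every library, with sham + v in blue, OVX + v in orange and black lines at the mean of 5. Of the 20 genes, *Macroh2a1*, *Sorbs2*, *Pmpcb* and *Mia2* show no overlap between the groups, and the others share part of their range.

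Over all well-counted genes, 11 (0.317%) had every sham + v library above every OVX + v library and 8 (0.231%) had the reverse. The first set held *Macroh2a1*, *Sorbs2*, the ribosomal protein gene *Rpl29*, *Ttc9c*, *Eps15l1*, *Mmgt2*, the lipid transporter gene *Abca2*, *Eapp*, the splicing factor gene *Sfpq*, *Stard10* and *Myadm*. The second held *Pmpcb*, *Mia2*, *Ddi2*, *Lrp1*, which encodes an endocytic receptor, *Anks1*, *Pdhb* of the pyruvate dehydrogenase complex, *Son* and *Cwc15*. The best counted of them was *Son*, with 1014 ± 109 CPM in the sham + v group and 1257 ± 99.0 CPM in the OVX + v group (SD, n = 5 each), and the next was *Abca2*, with 445 ± 45.9 and 295 ± 59.7 CPM. *Rpl29* had 207, 135, 148, 291 and 154 CPM in the sham + v libraries and 49.2, 128, 133, 65.4 and 36.9 CPM in the OVX + v libraries. The gap between the groups was narrow in *Rpl29*, since its lowest sham + v and highest OVX + v libraries differed by a few CPM.

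Read by family, medians lay on both sides of 0. Of 1017 genes in 34 lists, 440 were well counted, and of these 222 were higher and 218 lower in the sham + v group, with a median of 0.00. Before adjustment 11 of the 440 had a p under 0.05 on the higher and 10 on the lower side, to be read against the 2.54% and 1.59% of all genes above. The lists overlap in 17 of these genes. Of 30 lists with at least 3 well-counted members, 12 had a median that changed sign when 1 library was left out, and 185 of the 440 genes had a fold change that did. Without sham + v replicate 1, 211 of all 3468 genes (6.08%) had a p under 0.05 before adjustment, 113 (3.26%) higher and 98 (2.83%) lower, and counts without that library are to be read against these shares. Of the 440 listed genes 23 were then higher and 25 lower under 0.05. In that fit the medians were 0.12 for Schwann cell, 0.31 for neuronal, 0.27 for cell cycle, -0.20 for antigen-presenting, -0.34 for vessel and -0.42 for red blood cell genes, against 0.05, 0.19, 0.13, -0.10, -0.24 and -0.27 with all libraries.

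**Figure D3:**
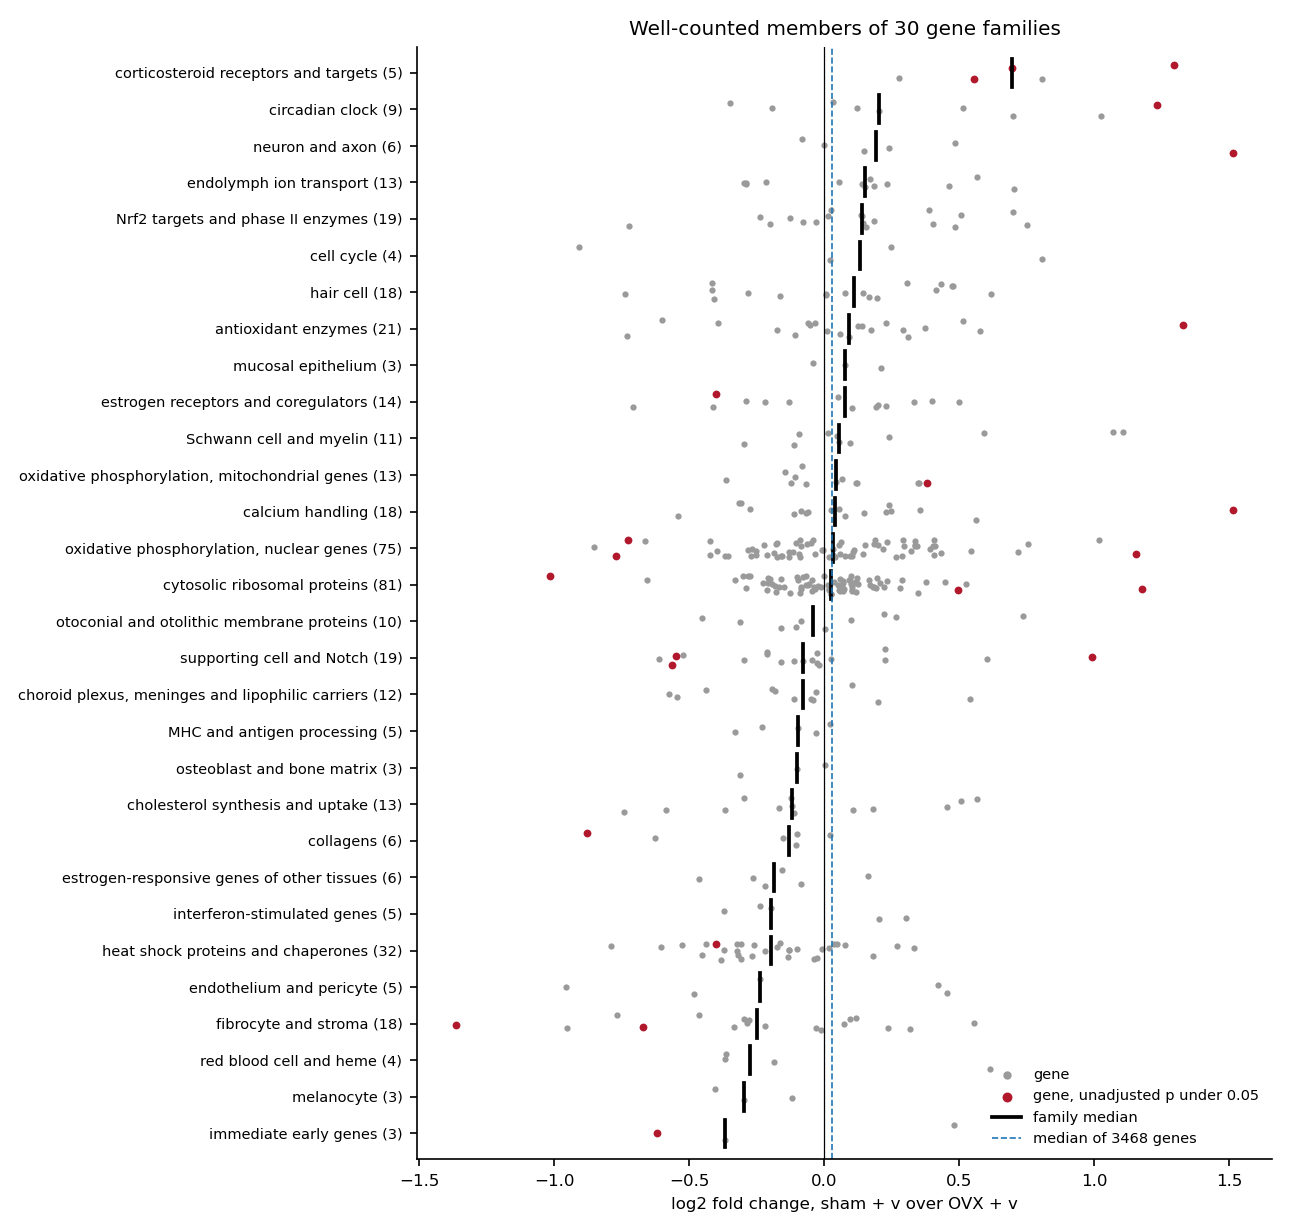
Log2 fold change of sham + v over OVX + v for the well-counted members of 30 families with at least 3 such members (numbers in brackets), ordered by the family median (black bar). The medians run from -0.37 for 3 immediate early genes to 0.70 for 5 corticosteroid targets, and members with an unadjusted p under 0.05 (red) are scattered over families on both sides.

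Genes of the otoconial matrix lay on both sides of 0. Of 22 otoconial and otolithic membrane genes 10 were well counted, 5 higher and 5 lower in the sham + v group (4 and 6 with TMM normalization), with a median of -0.04 (-0.19 to 0.04 when 1 library was left out) and no p under 0.05 before adjustment. Without sham + v replicate 1, 2 members were higher and 1 lower under 0.05. *Otog*, the otogelin gene of the otolithic membrane, had 1305, 4099, 3055, 2092 and 3361 CPM in the sham + v libraries and 1537, 2206, 3278, 2482 and 2073 CPM in the OVX + v libraries. The ranges overlapped widely, and the 95% interval of its fold change, -0.16 to 0.69, did not reach a doubling. *Otol1*, a collagen-like scaffold of the otoconia, had 98.9, 122, 261, 219 and 233 CPM in the sham + v libraries and 232, 102, 56.7, 139 and 29.3 CPM in the OVX + v libraries. Its fold change was 0.74 (SE 0.429, 95% interval -0.12 to 1.60), the largest of the family, and OVX + v replicate 6 was among the highest libraries of both groups. *Sparcl1* and *Sparc*, which encode calcium-binding matrix proteins, had fold changes of -0.08 and 0.00 with intervals of -0.48 to 0.31 and -0.38 to 0.39. Summed over the well-counted members the family stood at 7022 ± 1153 CPM in the sham + v and 6724 ± 1013 CPM in the OVX + v group (SD, n = 5 each).

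The transporters that set the potassium and pH of the endolymph were more often higher in the sham + v group. Of 31 genes 13 were well counted, 9 higher and 4 lower, with a median of 0.15 that ran from 0.03, without sham + v replicate 3, to 0.24 when 1 library was left out. None was under 0.05 before adjustment, and 1 was on each side without sham + v replicate 1. *Atp1b2*, a subunit of the sodium pump, had a fold change of 0.15, which was 0.38 without sham + v replicate 1 and 0.01 without sham + v replicate 5. The potassium channel genes *Kcnq1* and *Kcne1* had fold changes of -0.29 and 0.14, and the cotransporter gene *Slc12a2* had 0.17. *Car12*, a carbonic anhydrase, had 173, 641, 375, 108 and 681 CPM in the sham + v libraries and 287, 315, 336, 179.8 and 219 CPM in the OVX + v libraries. It had the smallest p of the family, with a fold change of 0.57 (SE 0.321, 95% interval -0.07 to 1.21), and sham + v replicates 1 and 4 lay below every OVX + v library while replicates 2, 3 and 5 lay above them. Another carbonic anhydrase, *Car3*, pointed the other way at -0.30.

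Among calcium pumps, buffers and sensors, 18 of 39 genes were well counted, 10 higher and 8 lower (9 and 9 with TMM normalization), with a median of 0.04 (-0.03 to 0.10 when 1 library was left out). *S100b*, the most abundant of them, had 11427, 5858, 5463, 6306 and 7647 CPM in the sham + v libraries and 9852, 9158, 9012, 10188 and 7497 CPM in the OVX + v libraries. The interval of its fold change was -0.69 to 0.05 around -0.32, and the fold change was -0.53 without sham + v replicate 1, which lay above every OVX + v library. The plasma membrane pump genes *Atp2b1* and *Atp2b2* had fold changes of -0.09 and 0.25. *Calb2*, which encodes calretinin, a calcium buffer of some hair cells and afferent terminals, had 118, 130.2, 36.2, 136 and 90.9 CPM in the sham + v libraries and 24.9, 46.4, 26.6, 30.2 and 50.9 CPM in the OVX + v libraries. Of its sham + v libraries only replicate 3 lay inside the OVX + v range, and the fold change was 1.52 (SE 0.569, 95% interval 0.38 to 2.65).

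The sensory epithelium gave values of both signs. Of 36 hair cell genes 18 were well counted, 12 higher and 6 lower (10 and 8 with TMM normalization), with a median of 0.11 that ran from -0.04 to 0.21 when 1 library was left out, and none under 0.05 before adjustment. *Pou4f3* and *Gfi1*, transcription factors that hair cells need to survive, had fold changes of 0.43 and 0.48, and *Otof*, which encodes the calcium sensor of their synapse, -0.41. *Myo6* was equal in the groups at 364 ± 141 and 362 ± 93.9 CPM (SD, n = 5 each). *Xirp2*, an actin-binding protein of the hair bundle, had 145, 192, 104, 101 and 79.6 CPM in the sham + v libraries and 329, 219, 149, 229 and 111 CPM in the OVX + v libraries. It had the smallest p of the hair cell genes, with a fold change of -0.74 (SE 0.38, 95% interval -1.50 to 0.02) and overlapping ranges.

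Supporting cell and Notch genes were more often lower in the sham + v group. Of 38 genes 19 were well counted, 5 higher and 14 lower (4 and 15 with TMM normalization). The median was -0.08 and ran from -0.23 to 0.08 when 1 library was left out, above 0 without sham + v replicate 4 and -0.19 without sham + v replicate 1. Those under 0.05 before adjustment were *Gjb2*, *Sox9* and *Cldn7*, with fold changes of -0.55, -0.56 and 0.99. *Cldn7* fell to 0.30 without sham + v replicate 5. *Gjb2*, which encodes connexin 26, had 637, 431, 597, 318 and 464 CPM in the sham + v libraries and 494, 633, 689, 1069 and 693 CPM in the OVX + v libraries. OVX + v replicate 6 and, barely, replicate 7 lay within the sham + v range, and the interval of the fold change was -1.02 to -0.08. Its partner in gap junctions, *Gjb6*, had a fold change of -0.21, as did the glutamate transporter gene *Slc1a3*. The Notch target *Hes1* had -0.52 and the claudin genes *Cldn3* and *Cldn9* -0.11 and 0.22.

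Nerve and glia genes had more members higher than lower in the sham + v group. Of 27 Schwann cell genes 11 were well counted, 8 higher and 3 lower, with a median of 0.05 that ran from -0.04 to 0.21 when 1 library was left out. Of 25 neuronal genes 6 were well counted, 4 higher and 2 lower, with a median of 0.19 that ran from 0.10 to 0.46. *Mbp*, which encodes myelin basic protein, had 319, 531, 823, 443 and 1011 CPM in the sham + v libraries and 503, 713, 681, 411 and 619 CPM in the OVX + v libraries. The sham + v libraries spanned a wider range than the OVX + v libraries and enclosed it, and the fold change was 0.10 (SE 0.247, 95% interval -0.40 to 0.59). *Prx*, which encodes periaxin, had the smallest p of the myelin genes, with a fold change of 1.07 (SE 0.567, 95% interval -0.06 to 2.20) and 271 CPM in sham + v replicate 5 against 14.6 to 102 CPM in the other 9 libraries. *Nefm*, a neurofilament gene, had 152 ± 29.8 and 152 ± 72.8 CPM (SD, n = 5 each).

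The summed level of connective tissue genes was below the OVX + v range in 4 of the 5 sham + v libraries and above it in replicate 1. Of 34 fibrocyte and stromal genes 18 were well counted, 6 higher and 12 lower in the sham + v group, with a median of -0.25. Without replicate 1 they were 4 higher and 14 lower, with a median of -0.49, and the highest median with 1 library left out was -0.13. *Coch*, the cochlin gene and the leading fibrocyte gene, had 8535, 4164, 4402, 4772 and 4386 CPM in the sham + v libraries and 7369, 5999, 5743, 7631 and 5542 CPM in the OVX + v libraries. Replicates 2 to 5 of the sham + v group all lay below the OVX + v group, and replicate 1 lay above it. *Otos*, which encodes otospiralin, and *Otor*, which encodes otoraplin, had fold changes of -0.28 and -0.34. For the family the summed level showed the same arrangement, with 9042 to 9792 CPM in replicates 2 to 5, 17493 CPM in replicate 1 and 11823 to 15418 CPM in the OVX + v libraries. *Cldn11*, a claudin, and *Pou3f4*, described above, were the members under 0.05 before adjustment, with fold changes of -0.67 and -1.36. Without sham + v replicate 1, 7 of the 18 were under 0.05, all lower in the sham + v group, where 2.83% of all genes were.

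Carriers of lipophilic molecules and genes of the choroid plexus and meninges were arranged in the same way. Of 25 genes 12 were well counted, 3 higher and 9 lower, with a median of -0.08, and without sham + v replicate 1 they were 2 higher and 10 lower, with a median of -0.32, and the highest median with 1 library left out was -0.03. None was under 0.05 before adjustment with that library, and 3, all lower, were without it, where 2.83% of all genes were. *Ptgds* had 85939, 37322, 39966, 43311 and 45432 CPM in the sham + v libraries and 58128, 49104, 49152, 54208 and 46846 CPM in the OVX + v libraries. The sham + v replicates 2 to 5 lay below all OVX + v libraries and replicate 1 above them, and the fold change was -0.03 (SE 0.187, 95% interval -0.40 to 0.34). *Clu*, which encodes clusterin, an extracellular chaperone, had 1897, 877, 990.3, 1039 and 541 CPM in the sham + v libraries and 1332, 1499, 1521, 1450 and 1440 CPM in the OVX + v libraries. Again replicate 1 was the only sham + v library at or above the OVX + v range, with a fold change of -0.44 (SE 0.219, 95% interval -0.88 to 0.00). The summed level of the list was 52151 to 59693 CPM in replicates 2 to 5, 112213 CPM in replicate 1 and 65967 to 76334 CPM in the OVX + v libraries. *Ttr*, the defining marker of the choroid plexus, had no count in 1 sham + v library and up to 671 CPM in the others. The part of the composition of that library in these values was not tested.

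Other cell types of the organ or its surroundings gave small lists. Of 44 collagen genes 6 were well counted, 1 higher and 5 lower (0 and 6 with TMM normalization), with a median of -0.13 that ran from -0.43, without sham + v replicate 1, to -0.06 when 1 library was left out. *Col27a1* was described above, and *Col9a2* and *Col11a2* had fold changes of 0.02 and -0.10. The melanocyte genes *Dct*, *Gpnmb* and *Pmel* had -0.41, -0.12 and -0.30. *Spp1* and *Col1a2* of bone matrix had -0.31 and -0.10 (the list median of -0.10 ran from -0.31, without sham + v replicate 1, to -0.02 when 1 library was left out), and the osteoblast marker *Bglap* had no count in 3 libraries. Of 24 macrophage genes only *Lyz2* was well counted, at 0.21, which turned to -0.20 without sham + v replicate 1. The interferon-stimulated genes *Ifitm3*, *Ifi27* and *Ifi27l2a* had -0.19, 0.30 and 0.21, and *B2m* and *H2-K1*, which present peptides on every cell, -0.10 and -0.03. Among vessel genes *Kdr* had 0.45 and *Slco1a4* -0.95, and the hemoglobin genes *Hba-a1*, *Hba-a2* and *Hbb-bs* had -0.36, -0.19 and -0.37. *Hba-a1* and *Hba-a2* are near copies, so that reads may have been divided between them by chance.

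The machinery of translation and respiration gave medians near that of all genes. Of 86 cytosolic ribosomal protein genes 81 were well counted, 46 higher and 35 lower, which turned to 39 and 42 with TMM normalization. Their median was 0.03, that of all genes, and 75 of the 81 intervals lay within 1 on the log2 scale. *Rps29*, the most abundant, had 4309 ± 732 CPM in the sham + v and 3992 ± 505 CPM in the OVX + v group (SD, n = 5 each). The members under 0.05 before adjustment were *Rps6* at 0.50, *Rps27l* at -1.02 and *Rpl29* at 1.18. Nuclear genes of oxidative phosphorylation were well counted in 75 of 80 cases, 39 higher and 36 lower (35 and 40 with TMM normalization), with a median of 0.03, and 49 of the 75 intervals lay within 1. Without sham + v replicate 1 they were 35 higher and 40 lower, with a median of -0.03. The cytochrome oxidase genes *Cox6c*, *Cox7c* and *Cox8a* had fold changes of -0.21, -0.04 and -0.08. Before adjustment 1 member was under 0.05 on the higher side and 2 on the lower side, *Uqcrq* at -0.73 and *Ndufa6* at -0.77.

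All 13 mitochondrially encoded subunits were well counted, and all 13 intervals lay within 1. They divided into 7 higher and 6 lower (6 and 7 with TMM normalization). Their median of 0.05 changed sign when 1 library was left out, from -0.07, without sham + v replicate 3, to 0.23, without sham + v replicate 1. Without sham + v replicate 1, the library with the low mitochondrial share, 12 were higher and 1 lower, with a median of 0.23, and 6 of them, all higher, had a p under 0.05 before adjustment, where 3.26% of all genes did, against 1 with all libraries. *mt-Nd2*, a complex I subunit and the member with the smallest p, had 6102, 13871, 12656, 11300 and 10667 CPM in the sham + v libraries and 9292, 9463, 8829, 6148 and 8223 CPM in the OVX + v libraries. Replicate 1 was the lowest library of all, the other 4 sham + v libraries lay above the OVX + v group, and the fold change was 0.38 (SE 0.187, 95% interval 0.01 to 0.75). *mt-Nd4* and *mt-Atp6* had fold changes of 0.12 and -0.07.

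Antioxidant enzymes remove superoxide and peroxides. Of 33 genes 21 were well counted, 13 higher and 8 lower (12 and 9 with TMM normalization), with a median of 0.09. *Sod1*, the cytosolic superoxide dismutase, had 1066, 959, 929, 933 and 1092 CPM in the sham + v libraries and 673, 858, 874, 1171 and 1093 CPM in the OVX + v libraries. Its interval of -0.32 to 0.50 stayed within a doubling in either direction. The extracellular enzyme genes *Sod3* and *Gpx3* had fold changes of 0.31 and 0.13, and *Sod3* was lowest in sham + v replicate 1 at 221 CPM and highest in sham + v replicate 4 at 2330 CPM. *Selenow*, a small selenoprotein and the member with the smallest p, had 68.2, 91.3, 121, 105 and 318 CPM in the sham + v libraries and 21.8, 37.6, 73.7, 101 and 45.3 CPM in the OVX + v libraries. Its fold change was 1.33 (SE 0.517, 95% interval 0.30 to 2.36), and sham + v replicates 1 and 2 lay within the OVX + v range.

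Targets of the transcription factor Nrf2 and enzymes of phase II detoxification numbered 43, of which 19 were well counted, 13 higher and 6 lower (11 and 8 with TMM normalization), with a median of 0.14 (0.03 to 0.19 when 1 library was left out) and none under 0.05 before adjustment. *Fth1* and *Ftl1*, the ferritin chains that store iron, had fold changes of -0.13 and -0.08, and their intervals of -0.50 to 0.25 and -0.48 to 0.32 stayed within a doubling. *Gstm1*, a glutathione transferase, had 428, 353, 547, 372 and 564 CPM in the sham + v libraries and 373, 474, 459, 373 and 633 CPM in the OVX + v libraries. It was as high in one group as in the other, with a fold change of -0.03 (SE 0.246, 95% interval -0.52 to 0.46). *Nfe2l2*, which encodes Nrf2, had 0.01 and its inhibitor *Keap1* 0.14, and *Me1*, the malic enzyme with the smallest p of the list, 0.70. The pi class genes *Gstp1* and *Gstp2* each had no count in some library of the comparison and were not among the well-counted genes.

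Metallothioneins, which bind zinc and copper and are induced by metals and by glucocorticoids, were higher in the sham + v group in both well-counted genes of 4. *Mt1* had 566, 393, 591, 730.2 and 649 CPM in the sham + v libraries and 643, 360.1, 334, 426 and 229 CPM in the OVX + v libraries. Its OVX + v replicate 6 was as high as the sham + v libraries and the other 4 lay at their lower end or below, with a fold change of 0.56 (SE 0.252, 95% interval 0.05 to 1.06). *Mt2* had 495, 270.3, 364, 769 and 657 CPM in the sham + v libraries and 502, 302, 214, 399 and 159 CPM in the OVX + v libraries. The ordering was similar, with a fold change of 0.70 (SE 0.283, 95% interval 0.13 to 1.26). The sum of both was 1097 ± 322 CPM in the sham + v group and 714 ± 289 CPM in the OVX + v group (SD, n = 5 each). Neither passed the threshold, with an adjusted p of 0.999 by edgeR's quasi-likelihood test. Since both genes are known to answer through metal response elements, their RefSeq promoter windows, from 250 bases before to 50 after the start of the gene, are shown with the core of that element (TGCACNC or TGCGCNC, either strand) in capitals. The window of *Mt1* is chr8:94178839-94179138 and that of *Mt2* chr8:94172368-94172667, both on the plus strand of GRCm38.p6, an older build than that of the counts.
Mt1: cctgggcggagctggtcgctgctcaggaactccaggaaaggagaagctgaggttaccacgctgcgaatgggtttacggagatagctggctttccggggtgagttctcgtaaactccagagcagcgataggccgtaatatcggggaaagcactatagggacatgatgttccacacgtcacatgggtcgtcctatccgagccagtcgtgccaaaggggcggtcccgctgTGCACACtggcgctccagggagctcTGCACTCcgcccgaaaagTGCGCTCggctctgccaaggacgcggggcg
Mt2: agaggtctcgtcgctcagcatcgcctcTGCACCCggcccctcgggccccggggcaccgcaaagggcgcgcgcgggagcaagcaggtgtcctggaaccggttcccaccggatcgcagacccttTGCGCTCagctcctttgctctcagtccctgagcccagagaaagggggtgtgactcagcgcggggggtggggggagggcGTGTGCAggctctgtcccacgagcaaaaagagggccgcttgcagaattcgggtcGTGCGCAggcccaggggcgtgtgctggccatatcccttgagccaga
The *Mt1* window held 3 cores and the *Mt2* window 4. At least 1 core stood in 28.2% of the 27025 genes with a window and in 43.2% of the 2783 well-counted genes with one, so that holding 1 sets neither gene apart. How many genes hold as many cores as these was not counted.

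Genes induced by corticosteroids overlap with that pair. Of 23 corticosteroid receptors and targets 5 were well counted, and all 5 were higher in the sham + v group, with a median of 0.70 that ran from 0.50 to 0.93 when 1 library was left out. With TMM normalization it was 0.65. They were *Mt1*, *Mt2*, *Klf9*, *Cdkn1a* and *Ddit4*. *Ddit4*, an inhibitor of mTOR signalling, had 151, 259.8, 73.5, 41.9 and 265 CPM in the sham + v libraries and 90.3, 66.5, 64.1, 61.9 and 39.0 CPM in the OVX + v libraries. Sham + v replicates 3 and 4 lay within the OVX + v range, and the fold change was 1.3 (SE 0.486, 95% interval 0.33 to 2.27). *Klf9*, a transcription factor, and *Cdkn1a*, an inhibitor of cyclin-dependent kinases, had fold changes of 0.28 and 0.81 with intervals of -0.26 to 0.81 and -0.10 to 1.72. The well-counted members summed to 1849 ± 288 CPM in the sham + v and 1226 ± 418 CPM in the OVX + v group (SD, n = 5 each). The receptor genes themselves were not among the well-counted genes.

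Chaperones were lower in the sham + v group in 25 of 32 well-counted genes of 41, and higher in 7 (26 and 6 with TMM normalization). The median of -0.20 ran from -0.26 to -0.15 when 1 library was left out. It was carried by many small differences, and 1 gene had a p under 0.05 before adjustment (3 without sham + v replicate 1, all lower, where 2.83% of all genes were). *Hsp90aa1*, the stress-inducible form of HSP90, had 1724, 1077, 1204, 1279 and 1019 CPM in the sham + v libraries and 1972, 1624, 1570, 1398 and 1750 CPM in the OVX + v libraries. Sham + v replicate 1 lay inside the OVX + v range and the other 4 below it, with a fold change of -0.40 (SE 0.198, 95% interval -0.79 to 0.00). *Hsp90ab1*, the constitutive form, had a fold change of -0.13, *Hspa8* and *Hspa5*, cytosolic and endoplasmic members of the HSP70 family, -0.31 and -0.16, and *Hspb1* -0.22, which turned to 0.30 without OVX + v replicate 10. *Hspa1b* and *Dnajb1*, the heat-inducible pair, had -0.79 and -0.61, and *Dnajb1* turned to 0.12 without OVX + v replicate 8. The chaperonin subunit genes *Cct3*, *Cct5* and *Cct8* had -0.45, -0.38 and -0.44, whereas *Cct7* had -0.17 and *Cct6a* 0.02. As a sum the well-counted chaperones made 14920 ± 1111 CPM in the sham + v and 17033 ± 2221 CPM in the OVX + v group (SD, n = 5 each).

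Clock genes follow the hour of sampling, which is not given. Of 23 genes 9 were well counted, 7 higher and 2 lower in the sham + v group, with a median of 0.20 that ran from 0.11 to 0.42 when 1 library was left out (0.36 without sham + v replicate 1). *Dbp*, an output factor of the clock with strong daily change, had 82.8, 209, 235, 128 and 200.3 CPM in the sham + v libraries and 43.0, 58.3, 87.3, 95.6 and 79.4 CPM in the OVX + v libraries. Only sham + v replicate 1 lay inside the OVX + v range, and the fold change was 1.23 (SE 0.444, 95% interval 0.34 to 2.12). *Rora*, *Per2* and *Nr1d2* had fold changes of 1.02, 0.70 and 0.52, and *Nr1d1* and *Csnk1d* -0.19 and -0.35. Of the immediate early genes, which respond within minutes to handling of a tissue, 3 of 29 were well counted, and *Jund* had 240.1, 212, 206, 155 and 168 CPM in the sham + v libraries and 239, 311, 286, 268 and 403 CPM in the OVX + v libraries. Sham + v replicate 1 reached the lowest OVX + v library, and the fold change was -0.62 (SE 0.302, 95% interval -1.22 to -0.02). *Klf6* and *Ccn2* had fold changes of 0.48 and -0.37. The median of these 3 genes was -0.37, and ran from -0.70, without sham + v replicate 1, to -0.03, without OVX + v replicate 6.

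**Figure D4:**
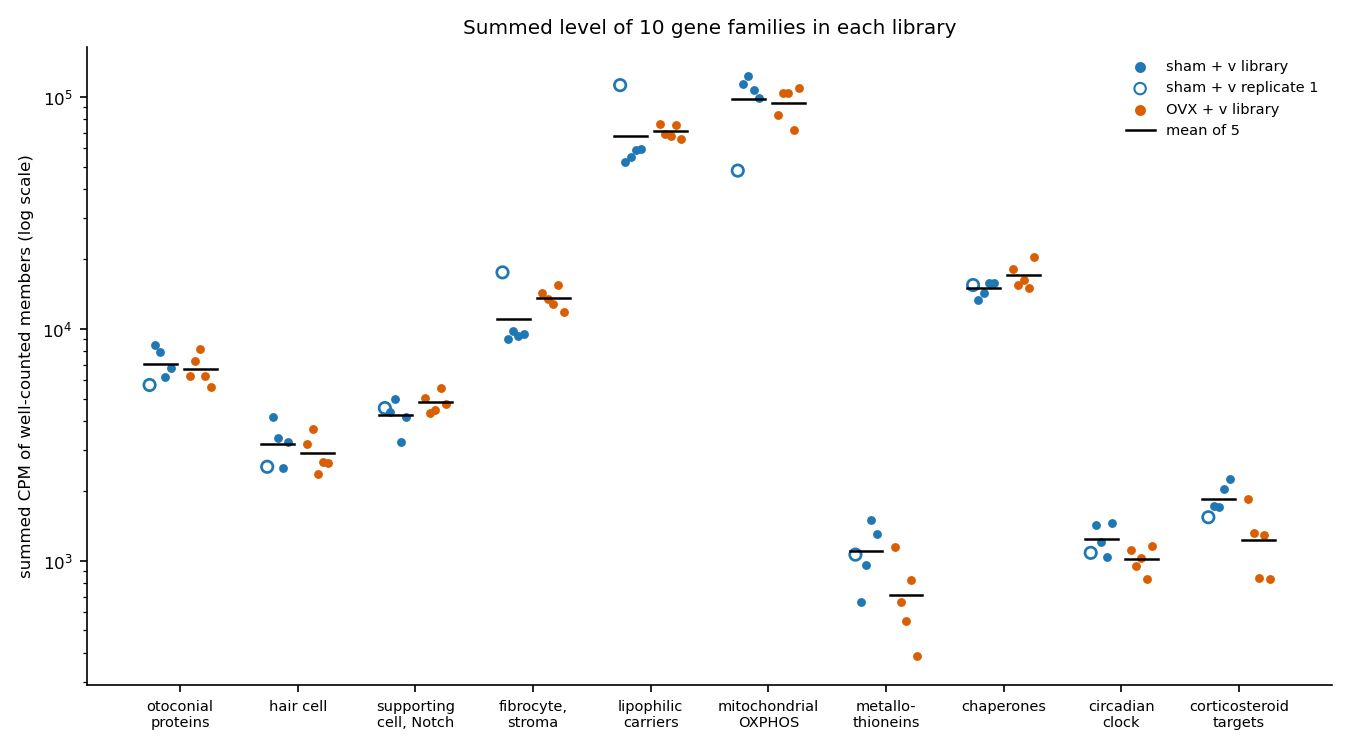
Summed CPM of the well-counted members (log axis) of 10 families in every library, with sham + v in blue, OVX + v in orange, black lines at the mean of 5 and an open circle for sham + v replicate 1. That library is the highest for fibrocyte genes and lipophilic carriers and the lowest for mitochondrial subunits, whereas the groups overlap in all 10 families.

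The receptors of estrogen had no count in most libraries of both groups. *Esr1* had 88 counts in sham + v replicate 2, 27 in OVX + v replicate 7, 3 in OVX + v replicate 10 and 0 in the other 7 libraries. *Esr2* had 4 counts in sham + v replicate 2 and 8 in OVX + v replicate 8, and *Gper1*, the membrane receptor gene, 10 in sham + v replicate 3 and 19 in OVX + v replicate 10, with 0 elsewhere. A count of 0 at these depths allows up to 3 counts, and covers counting error only. Of 35 genes of estrogen receptors, related receptors and coregulators 14 were well counted, 8 higher and 6 lower, with a median of 0.08 that ran from -0.03, without sham + v replicate 1, to 0.17 when 1 library was left out. *Ddx17* and *Ddx5*, helicases that act as coactivators, had fold changes of 0.23 and 0.05, the corepressor gene *Ncor1* 0.40 and the coactivator gene *Ncoa1* -0.71.

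Genes known to answer to estradiol in uterus, breast or bone were mostly lower in the sham + v group where they could be read. Of 28 such genes 6 were well counted, 1 higher and 5 lower in the sham + v group, with a median of -0.19 (-0.27 to -0.11 when 1 library was left out) and none under 0.05 before adjustment. Without sham + v replicate 1 they were 2 higher and 4 lower, and 1, *Igfbp4*, was lower under 0.05, with a fold change of -0.86. *Igfbp4*, an insulin-like growth factor binding protein, had 628, 283, 266, 196 and 234 CPM in the sham + v libraries and 283, 239.7, 688, 616 and 387 CPM in the OVX + v libraries. The ranges overlapped, with a fold change of -0.46 (SE 0.293, 95% interval -1.05 to 0.12). *Ctsd*, the lysosomal protease cathepsin D, had -0.08, *Xbp1* -0.26, *Cxcl12* -0.16 and *Bcl2* 0.16. *Pgr*, the progesterone receptor gene, had no count in 7 libraries, among them all of the sham + v group, and 3 counts or more in 3 OVX + v libraries. *Greb1* had no count in 5 libraries, and 3 counts or more in 2 sham + v libraries and 1 OVX + v library. The palindromic estrogen response element, GGTCANNNTGACC, stood in the promoter window of 20 of 27025 genes (0.0740%) and of 0 of the 2783 well-counted genes with a window, which says only that these letters are not in those windows.

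Sterol and cell cycle genes closed the account. Of 33 genes of cholesterol synthesis and uptake 13 were well counted, 5 higher and 8 lower, with a median of -0.12 (-0.20 to -0.01 when 1 library was left out). *Apoe*, the apolipoprotein, had a fold change of -0.11 with an interval of -0.47 to 0.25, *Msmo1*, a sterol oxidase, -0.74, and *Srebf2*, the regulator of the pathway, 0.51. Proliferation markers were not among the well-counted genes. Of 29 cell cycle genes 4 were, and *Cdkn1b*, the inhibitor p27 that keeps cells out of the cycle, had 354, 779, 696, 512 and 645 CPM in the sham + v libraries and 413, 521, 504, 514 and 564 CPM in the OVX + v libraries. The groups overlapped, with a fold change of 0.25 (SE 0.234, 95% interval -0.22 to 0.71). *Ccnd2* had 0.02 and *Cdkn1c* -0.91.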

How the data were processed

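RNA of the utricle was sequenced from 3′ ends, starting from total RNA of each sample. As the study's methods describe, the authors removed adaptor, poly(A) and low-quality sequence, mapped the reads to the mouse genome (GRCm39, also named in the submitters' processing notes) and counted them in CLC Genomics Workbench, whose version is not given in the sources used here. The deposited counts are whole numbers of reads per gene, without normalization, and are the only values used. The deposited CPM, TPM and RPKM columns, and the columns of the authors' own comparisons (group means, fold changes, p-values and their adjustments), were not used. The deposited table holds 0 columns of samples outside the series. No molecular identifiers are described, so that floors cover counting error only.

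Groups were taken from the labels. The 5 sham + v and 5 OVX + v libraries were compared over genes with at least 10 counts in each of them, by the quasi-likelihood test of edgeR 4.0.16 (glmQLFit and glmQLFTest) in R 4.3.3, with the column total as library size, no covariate, Benjamini-Hochberg adjustment over all 3468 genes and a threshold of 0.05. The filter takes both groups alike, and it leaves out every gene with no count in some library. Standard errors were derived from the fold change and its F statistic, and intervals are at 95%. The procedure was tested on simulated counts. Tables and figures were made with Python 3.11.15, pandas 2.3.3, numpy 2.4.6, scipy 1.17.1 and matplotlib 3.10.9. No pair of replicates (0 of 20) held the same counts.

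The genes described are the 10 with the smallest p on each side, the 3 best counted members and the member with the smallest p of each of 34 gene lists, the estrogen receptors and the *Gstp* genes. A few genes that this rule names are not reported here. Other members given a fold change, the promoter motifs and the genes without overlap were picked once their values were known. The comparison, its members and its lists were chosen with earlier results of these data known, so that lists are described by counts and medians without a test. Alternatives were TMM normalization, DESeq2 1.42.0, 3 other filters, limma 3.58.1 with pseudocounts of 1 and 0.1 on log2 CPM, robust dispersion estimates in glmQLFit, a fit that includes all 4 groups, and 10 fits that each omit a library. Promoter windows and gene names in them are from RefSeq (GRCm38.p6), and 2783 of the well-counted genes matched by symbol.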

Additional observations from a re-analysis of the deposited data

Results flagged for a closer look

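Of 100 groups of 5 values, those of the genes with the smallest p and of the summed families, 6 had a library far from the other 4 by Dixon's criterion at 95%, where about 5 are expected by chance. All 6 were sham + v replicate 1. It was the highest sham + v library in the CPM of *Ndufa6* (436 against 151 to 229), and in the summed CPM of the fibrocyte and stromal genes (17493 against 9042 to 9792), the lipophilic carriers and choroid plexus genes (112213 against 52151 to 59693), the bone matrix genes (2417 against 1948 to 2079) and the cholesterol genes (8220 against 5686 to 6145). It was the lowest in the summed CPM of the endothelial and pericyte genes (232 against 471 to 561). The bone matrix sum holds *Sparc*, *Spp1* and *Col1a2* alone, the well-counted members of 21 listed genes. The cholesterol list includes *Apoe*, which is also in the list of carriers.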

How the results depend on the processing

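The absence of calls held under TMM normalization, DESeq2, the default filter of edgeR, both limma fits, the robust fit, the fit of all 4 groups and each of the 10 fits without 1 library, with 0 genes each at an adjusted p under 0.05 and 54 (all 4 groups) to 197 (DESeq2) genes before adjustment with all libraries, and 120 to 211 without 1 library. The highest of these, 211, was without sham + v replicate 1, where the smallest adjusted p was 0.146, and with DESeq2 it was 0.137. With a filter of at least 10 counts summed (13825 genes) and with no filter (14764 genes) 2 genes passed, *Gstp2* and *Eme1*, which have no count in some libraries and cannot enter the comparison of well-counted genes. *Gstp1* had no count in sham + v replicates 2 and 4, where *Gstp2* had 596 and 376 CPM. *Gstp2* had no count in sham + v replicate 1 and OVX + v replicates 6, 7, 9 and 10, where *Gstp1* had 319 to 519 CPM. Whether reads were divided between this pair was not tested. Counts of genes without overlap moved with each library left out, from 11 to between 17 and 34 with the sham + v group above and from 8 to between 13 and 41 with it below, since fewer libraries overlap less. Both were highest without sham + v replicate 1. With TMM normalization they were 9 and 9. Genes with an interval within 1 on the log2 scale numbered 882 with TMM normalization, 719 in the fit of all 4 groups and 712 to 809 without 1 library. Fold changes of the 20 genes with the smallest p kept their direction under all alternatives that were run. These genes were picked from the same libraries that the alternatives refit, so that this is no separate test of them. No paired analysis was possible because the libraries of the groups share no replicate number. Under 50 CPM 0 of 448 genes had an interval within 1. Replicates of a group differed beyond counting error (chi-square per gene of 28.5 to 56.6 between pairs), and the part of depth in these intervals was not tested.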
